A study of Mus musculus with 32 samples.

Results

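Mast cells and basophils are recognised by a small set of genes, and 10 of them were followed here in murine Ba/F3 cells, a pro-B cell line: Kit, Fcer1a, Fcer1g, Ms4a2, Gata1, Gata2, Hdc, Cpa3, Tpsb2 and Cma1. The members were chosen by symbol, and each had exactly 1 probe set assigned to that symbol alone, so 10 of the 19938 genes with such a probe set were described. RNA of 4 lines was hybridised to 32 Affymetrix arrays (mouse Gene ST), 8 for each line. The first, Ba/F3-gp130, carried human gp130 and is called the parental line here. Each of the other lines was derived from it by stable transduction and so carried gp130 too. The natural receptor line is Ba/F3-IL-12Rβ1-IL-23R, with the pair of chains that binds IL-23. Synthetic cytokine receptors (SyCyR), in which nanobodies against GFP or mCherry replace most of the outer part of a receptor, were used in the remaining lines. The heterodimer SyCyR line is Ba/F3-SyCyR(IL-23/2A), in which an mCherry nanobody on IL-23R and a GFP nanobody on IL-12Rβ1 are made from 1 transcript. The homodimer SyCyR line is Ba/F3-SyCyR(IL-23R), which has a GFP nanobody on IL-23R alone. The growth medium of Ba/F3-gp130 cells contained Hyper-IL-6. In its general methods the study removed Hyper-IL-6 after selection and chose transduced lines by growth that depended on GFP:mCherry proteins. The same methods name HIL-23 medium for the natural receptor line. Which cytokine each line received before the arrays is not stated line by line. Cells were kept in serum-free medium for 3 h and then given 100 ng/ml ligand or control supernatant for 1 h. The ligand was HIL-23 in the natural receptor line, a GFP-mCherry fusion in the heterodimer SyCyR line and 3xGFP in the homodimer SyCyR line. The labels name an array by its line and by a number between 13 and 20 and do not state its stimulation, so the lines were compared over all 8 arrays and a line's range includes arrays of unlabelled stimulation. Each receptor was represented by 1 line, selected and cultured on its own for weeks, so receptor and line history cannot be told apart.

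In mast cells and basophils the high-affinity IgE receptor FcεRI is built from an α chain that binds IgE (Fcer1a), a β chain that amplifies the signal (Ms4a2) and a γ chain that signals through its ITAM and is shared with other Fc receptors (Fcer1g). KIT, the receptor for stem cell factor, supports mast cell survival, and the transcription factors GATA1 and GATA2 drive many genes of this lineage. Histidine decarboxylase (Hdc) makes histamine, and carboxypeptidase A3 (Cpa3), tryptase (Tpsb2) and chymase (Cma1) are proteases of the secretory granule. Basophils carry FcεRI and histamine but usually little KIT or chymase.

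Of the 10 genes, 4 had a mean over the 32 arrays above 7.04 on the log2 scale, which is the median over the means of all probe sets, and were counted as expressed by this rule: Fcer1a, Fcer1g, Gata1 and Gata2. Fcer1g, Gata1 and Gata2 lay above 7.04 on 32 of 32 arrays, and Fcer1a on 30 of 32. The mean of Gata2 (12.77) stood at the 97.2 percentile of all probe set means, that of Fcer1g (12.08) at 95.4, that of Gata1 (10.86) at 88.6 and that of Fcer1a (8.44) at 66.2. Fcer1a was thus the lowest of the 4. Just outside the limit was Ms4a2, with a mean of 7.03 and 13 of 32 arrays above the limit. Kit (6.38), Hdc (6.70), Cpa3 (5.24), Tpsb2 (6.74) and Cma1 (5.71) lay below it. The expressed genes were thus both GATA factors with the α and γ chains of FcεRI, while KIT, the enzyme for histamine and all 3 granule proteases were not counted as expressed. When the limit was taken from probe sets with a symbol only (7.44), the same 4 genes passed. A value below the limit is not evidence that a transcript was absent, since a probe set's own response to its target is unknown.

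**Figure D1:**
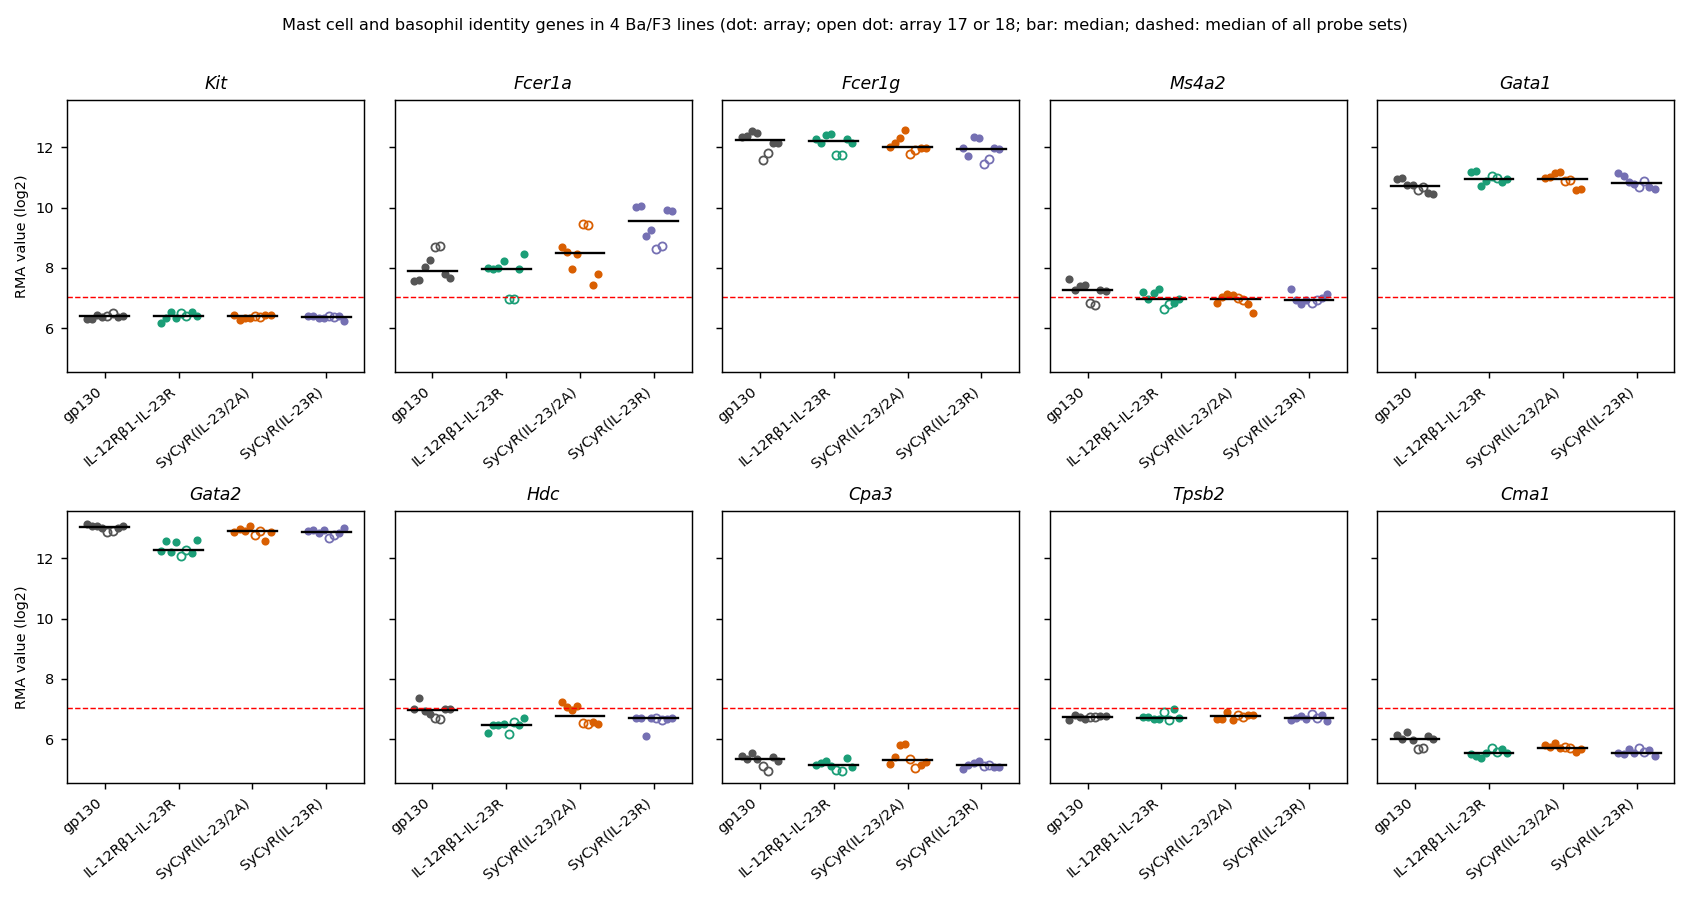
RMA values (log2) of the 10 genes by line, 1 dot per array, with arrays 17 and 18 as open dots, the median of each line as a bar and the limit of 7.04 as a dashed line. Columns are marked by the receptor a line carries, from the parental line on the left to the homodimer SyCyR line on the right. Fcer1g, Gata1 and Gata2 lay above the dashed line on all arrays, Fcer1a on 30 of 32, and Kit, Cpa3, Tpsb2 and Cma1 on none.

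Fcer1a, the α chain of the IgE receptor, differed most between lines and also within them. Its values ran from 7.57 to 8.72 around a median of 7.91 in the parental line, from 6.96 to 8.48 around 7.97 in the natural receptor line, from 7.44 to 9.46 around 8.49 in the heterodimer SyCyR line and from 8.62 to 10.04 around 9.56 in the homodimer SyCyR line. The arrays of the homodimer SyCyR line lay wholly above those of the natural receptor line and overlapped with those of the other lines. The homodimer SyCyR line exceeded the parental line by 1.40 (SE 0.27, 2.63-fold, adjusted p = 0.000344 by limma), the natural receptor line by 1.62 (SE 0.27, 3.08-fold, adjusted p = 1.88e-05) and the heterodimer SyCyR line by 0.98 (SE 0.27, 1.97-fold, adjusted p = 0.0199). These SEs and p-values take the 8 arrays of a line as independent. When arrays of consecutive numbers were averaged to 4 values per line, the last of these calls was lost (adjusted p = 0.195). The adjusted p by limma was then 0.0239 against the parental line and 0.00499 against the natural receptor line. The other 3 lines did not pass the test against each other. The 95% interval for the difference from the parental line was -0.78 to 0.33 for the natural receptor line and -0.14 to 0.98 for the heterodimer SyCyR line. The heterodimer SyCyR line minus the natural receptor line was 0.65 (1.57-fold, interval 0.09 to 1.20, adjusted p = 0.104 by limma), and 0.04 without arrays 17 and 18. The range of Fcer1a over the 8 arrays was wider than that of 99.3% to 99.9% of probe sets with a symbol. In bulk RNA, fewer cells that express a gene and less RNA per cell cannot be told apart.

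Within a line, arrays of consecutive numbers (13 and 14, and so on) were close, with Fcer1a differing by -0.51 to 0.17 over the 4 lines, and most of the range lay between such pairs. Arrays 17 and 18 held the highest values of Fcer1a in the parental line (8.70 and 8.72) and in the heterodimer SyCyR line (9.46 and 9.41), but the lowest in the natural receptor line (6.97 and 6.96) and in the homodimer SyCyR line (8.62 and 8.74). No common shift of these arrays thus describes the gene. Of the 10 members, 6 had both of these arrays lowest in the parental line (12.5% of probe sets with a symbol), 4 in the natural receptor line (4.15%), 1 in the heterodimer SyCyR line (3.58%) and 3 in the homodimer SyCyR line (8.24%). Both were highest for Fcer1a alone in the parental line (9.54% of probe sets) and in the heterodimer SyCyR line (3.75%), and for no member in the natural receptor line (4.84%) or the homodimer SyCyR line (6.96%). The sources used here do not say what the numbers stand for. Without arrays 17 and 18 the difference of the homodimer SyCyR line from the heterodimer SyCyR line was 1.55 in place of 0.98 and that from the parental line 1.87 in place of 1.40. The difference of the natural receptor line from the parental line, which did not pass the test, turned from -0.23 to 0.28.

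**Figure D2:**
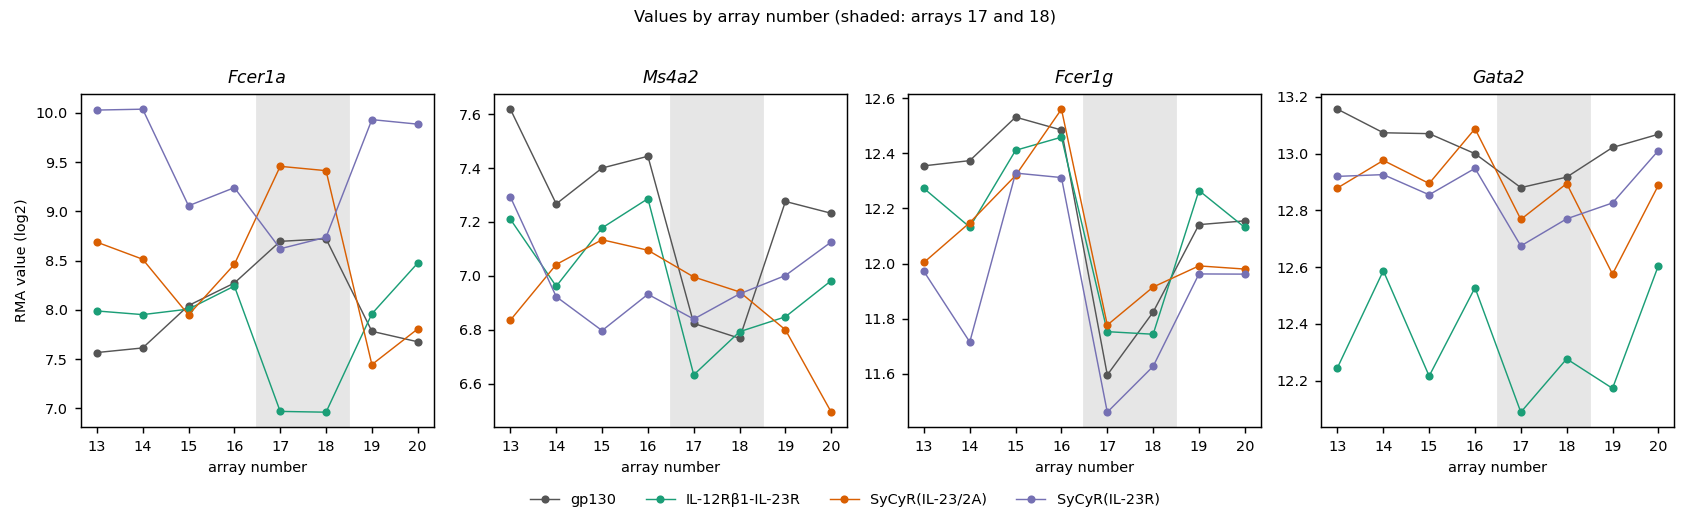
RMA values (log2, a separate scale in each panel) of Fcer1a, Ms4a2, Fcer1g and Gata2 against the array number, 1 coloured curve per cell line, with arrays 17 and 18 shaded. In the shaded arrays Fcer1a was highest in 2 lines and lowest in the other 2, whereas Fcer1g was lowest in all 4.

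Fcer1g, the γ chain, was high in every line, with medians of 12.26 in the parental line, 12.20 in the natural receptor line, 12.00 in the heterodimer SyCyR line and 11.96 in the homodimer SyCyR line. All 4 ranges overlapped, between 11.46 and 12.56, and no difference was called. Compared number by number, Fcer1g was lower in the homodimer SyCyR line than in the parental line and the natural receptor line at 8 of 8 array numbers, and lower than in the heterodimer SyCyR line at 7 of 8. The share of all probe sets with such a pattern was not counted. Same-numbered arrays of the homodimer SyCyR line and the parental line did not all deviate together (lowest correlation -0.018), so pairing by number is not established for them. With the array number as a block in limma the adjusted p was 0.000624 against the parental line (0.211 without the block), 0.00172 against the natural receptor line (0.262) and 0.0373 against the heterodimer SyCyR line (0.611), with differences of -0.27, -0.23 and -0.17, all below 1.5-fold. In these comparisons the block put 22.4%, 29.5% and 13.4% of all tested probe sets under 0.05, beside 14.7%, 22.5% and 7.74% without it. Arrays 17 and 18 held the lowest values of Fcer1g in all 4 lines. The β chain Ms4a2, which with the others forms the complete receptor, lay at the limit: its median was 7.27 in the parental line, 6.97 in the natural receptor line, 6.97 in the heterodimer SyCyR line and 6.93 in the homodimer SyCyR line, so the parental line alone had a median above 7.04. The ranges, 6.77 to 7.62 in the parental line and 6.49 to 7.29 over the other lines, overlapped and no difference was called. The 3 chains differed in direction: in the homodimer SyCyR line, where Fcer1a was 1.40 higher than in the parental line, Ms4a2 differed by -0.25 (95% interval -0.46 to -0.03) and Fcer1g by -0.27 (-0.54 to 0.01), and neither was called. With the block the adjusted p of Ms4a2 was 0.0479 there and 0.0208 in the heterodimer SyCyR line minus the parental line (difference -0.31). Without arrays 17 and 18 Ms4a2 differed from the parental line by -0.30 in the natural receptor line (adjusted p = 0.0448 by limma). It differed by -0.47 in the heterodimer SyCyR line (0.00473) and by -0.36 in the homodimer SyCyR line (0.0162). All of these were below 1.5-fold. No test of the difference between chains was made.

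The 300 bases around the annotated start of 3 genes are shown because they belong to the gene that differed between lines, to its partner chain at the limit, and to a granule protease gene with low values that carries the same letters. They were taken from RefSeq, assembly GRCm38.p6, cover 250 bases before and 50 after the start, and are written 5′ to 3′ on the minus strand, with every AGATAA or its reverse complement TTATCT in capitals. Fcer1a is at chr1:173227180-173227479, Ms4a2 at chr19:11623670-11623969 and Cpa3 at chr3:20242132-20242431.
Fcer1a: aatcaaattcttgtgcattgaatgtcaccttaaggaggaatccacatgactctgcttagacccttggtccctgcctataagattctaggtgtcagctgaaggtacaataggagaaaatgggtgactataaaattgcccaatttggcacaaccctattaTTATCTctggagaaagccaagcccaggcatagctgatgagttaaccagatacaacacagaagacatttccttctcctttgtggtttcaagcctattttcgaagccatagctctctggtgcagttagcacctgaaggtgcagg
Ms4a2: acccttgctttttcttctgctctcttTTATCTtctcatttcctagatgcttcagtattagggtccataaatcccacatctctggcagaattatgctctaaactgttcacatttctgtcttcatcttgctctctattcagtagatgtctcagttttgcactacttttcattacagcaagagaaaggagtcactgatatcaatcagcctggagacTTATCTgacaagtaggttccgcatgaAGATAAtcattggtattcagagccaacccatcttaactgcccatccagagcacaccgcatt
Cpa3: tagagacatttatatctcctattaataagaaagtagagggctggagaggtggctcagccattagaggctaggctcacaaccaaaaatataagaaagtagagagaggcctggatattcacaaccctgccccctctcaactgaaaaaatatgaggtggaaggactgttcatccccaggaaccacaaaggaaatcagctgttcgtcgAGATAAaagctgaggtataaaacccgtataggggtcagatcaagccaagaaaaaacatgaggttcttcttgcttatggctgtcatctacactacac
AGATAA was searched on both strands, and so were the form AGATAG, the form TGATAA and the form TGATAG, since GATA factors recognise such letters. The matches in these windows did not overlap each other. Fcer1a held 1 match, with its first base at -92 from the start, Ms4a2 held 3, at -224, -37 and -11, and Cpa3 held 1, at -46. Hdc held 1 (TGATAG at -221) and so did Cma1 (AGATAG at -79), whereas Kit, Fcer1g, Gata1 and Gata2 held none in these windows, and Tpsb2 was not in the table. Counted by gene, at least 1 match was thus found in 5 of 9 members, of which Kit and Gata2 each had 2 annotated starts. Counted by promoter, at least 1 match was found in 29.8% of all 32851 promoters, and 3 or more were found in 1.76% of them. The shares thus differ in unit. A match is a run of letters and was not tested for binding, and the genes with a match included Fcer1a, which was counted as expressed, and Cpa3, Hdc and Cma1, which were not.

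Both GATA factors were expressed in all lines, and they ran differently. Gata2 had its lowest values in the natural receptor line, from 12.09 to 12.60 around a median of 12.26. In the parental line it ran from 12.88 to 13.16 around 13.04, in the heterodimer SyCyR line from 12.58 to 13.09 around 12.89 and in the homodimer SyCyR line from 12.67 to 13.01 around 12.89. Gata2 was thus lower in the natural receptor line without overlap with the parental line or the homodimer SyCyR line, and its highest value only just passed the lowest of the heterodimer SyCyR line. The difference from the parental line was -0.68 (SE 0.07, 95% interval -0.83 to -0.54, 1.61-fold lower, adjusted p = 1.49e-09). The heterodimer SyCyR line and the homodimer SyCyR line each exceeded the natural receptor line by 0.53 (adjusted p = 3.02e-07 and 3.2e-07), which is less than 1.5-fold. Gata1 had medians of 10.71 in the parental line, 10.97 in the natural receptor line, 10.96 in the heterodimer SyCyR line and 10.81 in the homodimer SyCyR line, and the ranges overlapped. Its difference of 0.27 between the natural receptor line and the parental line had an adjusted p of 0.0329 by limma but did not reach 1.5-fold. That adjusted p was 0.212 without arrays 17 and 18, 0.0834 with median centring and 0.197 with consecutive numbers averaged. It stayed under 0.05 in the other refits.

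Gata2 also differed between odd and even array numbers. In the natural receptor line the odd number of each consecutive pair (13 and 14, 15 and 16, and so on) was lower in 4 of 4 pairs, with differences of -0.43 to -0.19, and the same held in the heterodimer SyCyR line (-0.31 to -0.10) and the homodimer SyCyR line (-0.18 to -0.01). In the parental line it was lower in 2 of 4 pairs, with differences of -0.05 to 0.08. The Gata2 difference of -0.68 between the natural receptor line and the parental line pools odd and even arrays. In the natural receptor line the odd arrays ran from 12.09 to 12.25 and the even arrays from 12.28 to 12.60. All lay below 12.88, the lowest value of the parental line. Whether either set alone reaches 1.5-fold was not tested. The odd number was lower in all 4 pairs for 14.8% of probe sets with a symbol in the natural receptor line, 12.7% in the heterodimer SyCyR line, 6.23% in the homodimer SyCyR line and 5.79% in the parental line. Hdc had this pattern too in the natural receptor line (-0.37 to -0.02), and Gata1 in the heterodimer SyCyR line (-0.05 to -0.01). The odd number was higher in all 4 pairs for Cpa3 in the parental line (0.13 to 0.18, beside 7.36% of probe sets), for Tpsb2 in the natural receptor line (0.02 to 0.30, beside 12.6%) and for Cma1 in the homodimer SyCyR line (0.01 to 0.20, beside 5.5%), and for no member in the heterodimer SyCyR line (10.4%). The stimulation of these arrays is not in the labels, and no state was assigned to them.

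The remaining members had low values. Hdc ran from 6.67 to 7.35 in the parental line, from 6.19 to 6.71 in the natural receptor line, from 6.50 to 7.22 in the heterodimer SyCyR line and from 6.10 to 6.72 in the homodimer SyCyR line, with 4 arrays above 7.04 in all. Its differences from the parental line were -0.49 for the natural receptor line (adjusted p = 0.00102) and -0.32 for the homodimer SyCyR line (0.0425), below 1.5-fold. The latter includes array 15 at 6.10, whereas the other arrays of that line lay between 6.62 and 6.72. This difference was not tested without array 15. Cma1, the chymase, lay between 5.68 and 6.25 in the parental line and between 5.37 and 5.88 over the other lines. It differed from the parental line by -0.44 in the natural receptor line (adjusted p = 1.82e-06), -0.26 in the heterodimer SyCyR line (0.0111) and -0.41 in the homodimer SyCyR line (1.55e-05), again below 1.5-fold and on a probe set below the limit, so no fold is given. Cpa3 ran from 4.95 to 5.83 over all lines, with medians of 5.34, 5.14, 5.30 and 5.13 in the parental line, the natural receptor line, the heterodimer SyCyR line and the homodimer SyCyR line, and no difference was called. Tpsb2 ran from 6.61 to 7.00 and Kit from 6.18 to 6.54. For Kit and Tpsb2 the 6 differences between lines were all within 0.04 of 0, and their 95% intervals stayed between -0.14 and 0.12.

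A call required a Benjamini-Hochberg adjusted p under 0.05 over all 23410 probe sets with a symbol and at least 1.5-fold. The 3 comparisons with the parental line share its arrays. The natural receptor line minus the parental line called 1 of 10 members, Gata2, where 2.91% of all tested probe sets were called. The homodimer SyCyR line minus the parental line called 1, Fcer1a (1.52% of all). The heterodimer SyCyR line minus the parental line called 0 of 10 (0.56% of all) by limma, and 4 members had an unadjusted p under 0.05. Between the receptor lines, the heterodimer SyCyR line minus the natural receptor line called 0 (2.62% of all) by limma. There 5 members had an unadjusted p under 0.05, and 3 of them, Gata2, Hdc and Cma1, an adjusted p under 0.05. The share of all tested probe sets with an unadjusted p under 0.05 was not counted. Such counts, here and in the wider lists, thus have no background beside them. The homodimer SyCyR line minus the natural receptor line called 1 (3.12% of all) and the homodimer SyCyR line minus the heterodimer SyCyR line called 1 (1.05% of all), both Fcer1a. In all, 14 of 60 differences had an adjusted p under 0.05 and 4 of these were at least 1.5-fold, in 2 genes. At any fold, 4 of 10 members had an adjusted p under 0.05 in the natural receptor line minus the parental line, beside 17.9% of all tested probe sets, and 1 in the heterodimer SyCyR line minus the parental line (6.23%) and 3 in the homodimer SyCyR line minus the parental line (14.7%). Between the receptor lines these counts were 3 (18.4%), 2 (22.5%) and 1 (7.74%) in the same order. With the array number as a block they were 4, 4 and 6 against the parental line, beside 24.5%, 13.3% and 22.4% of all tested probe sets, and 4 (25.1%), 3 (29.5%) and 3 (13.4%) between the receptor lines. No added difference reached 1.5-fold. In the heterodimer SyCyR line minus the parental line Ms4a2, Gata1 and Gata2 were added to Cma1. With 10 members, 1 call is a single gene and says nothing of the group. The median difference of the members from the parental line was -0.20 in the natural receptor line, -0.05 in the heterodimer SyCyR line and -0.16 in the homodimer SyCyR line, beside 0.01 over all tested probe sets in the natural receptor line.

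**Figure D3:**
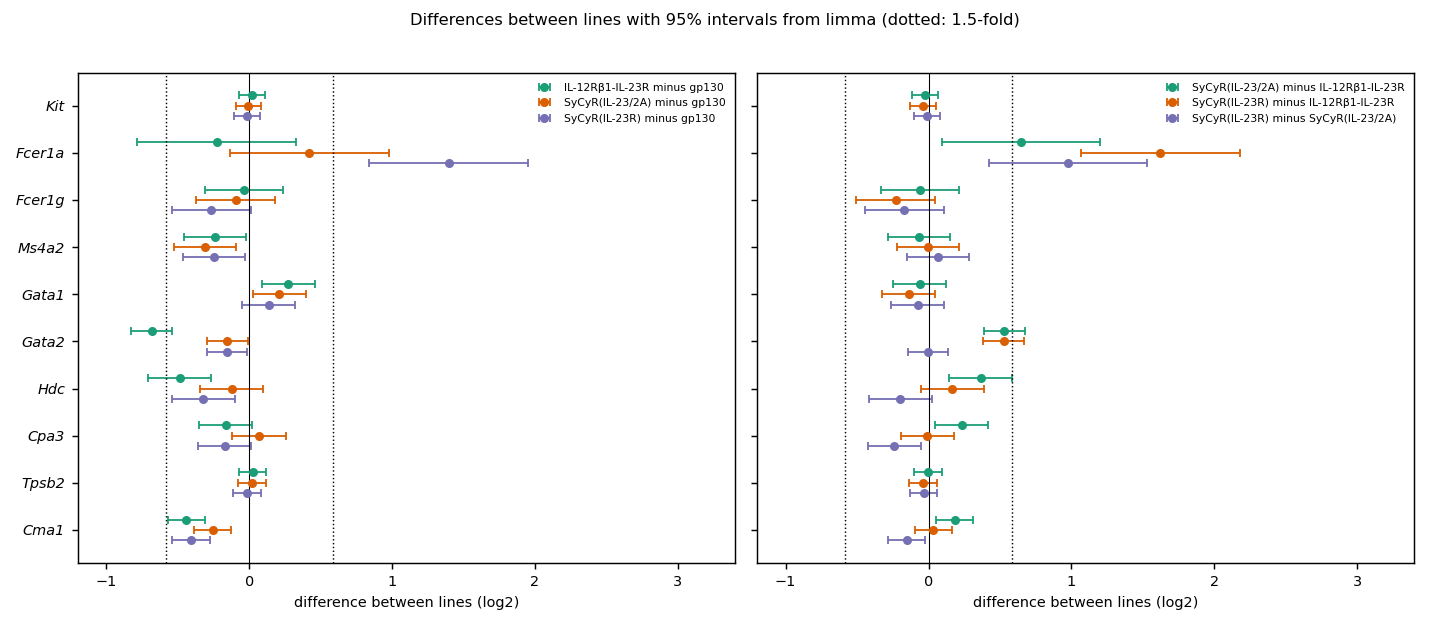
Differences between lines (log2) for the 10 genes with 95% intervals from limma, the 3 comparisons with the parental line on the left and the 3 among receptor lines on the right, and dotted lines at 1.5-fold. Fcer1a in the homodimer SyCyR line and Gata2 in the natural receptor line against the parental line lay beyond the dotted lines, as did Fcer1a in the heterodimer SyCyR line minus the natural receptor line (0.65), which was not called, and Kit and Tpsb2 stayed within 0.04 of 0.

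The genes whose values over the 32 arrays were most like those of the called members were searched among 12227 probe sets with a mean above the limit. For Fcer1a they were Ptp4a2 (Pearson r = 0.79), Slc39a4 (0.76) and Rcn2 (0.76). For Gata2 they were Gatad1 (0.96), Sh2d3c (0.94) and Lmo4 (0.94). The 32 arrays share 4 lines, so part of each r is the difference between lines: with each line's median taken away, r was 0.40, 0.26 and 0.33 for Fcer1a and 0.79, 0.72 and 0.62 for Gata2. These are descriptions without a test. Lmo4 had medians of 13.03 in the parental line, 11.95 in the natural receptor line, 12.85 in the heterodimer SyCyR line and 12.74 in the homodimer SyCyR line, with the natural receptor line lowest and the parental line highest, as for Gata2.

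Around the 10 members, 6 wider lists of mast cell and basophil genes were read in the same way, with 93 measured genes. Over all tested probe sets, 1.64% were called higher and 1.27% lower in the natural receptor line than in the parental line, 0.363% and 0.196% in the heterodimer SyCyR line, and 0.867% and 0.649% in the homodimer SyCyR line. Between receptor lines the shares were 1.17% and 1.46% for the heterodimer SyCyR line and 1.57% and 1.55% for the homodimer SyCyR line against the natural receptor line, and 0.671% and 0.376% for the homodimer against the heterodimer SyCyR line. Among genes that relay the FcεRI signal, 17 of 20 measured had a mean above 7.04, and of the partners of GATA and other mast cell transcription factors 21 of 22. For KIT ligand and signaling the count was 11 of 12, and for granule and lipid mediator genes 10 of 13. It was 6 of 17 for surface receptors and 3 of 9 for proteases. The highest means of the granule list were those of the proteoglycan core protein serglycin (Srgn, 13.95) and of the vesicular monoamine transporter that loads histamine (Slc18a2, 12.81). No gene of the granule list was called in any of the 6 comparisons by limma. An unadjusted p under 0.05 was found for 3 to 8 of the 13, with no share over all tested probe sets counted beside it. Both Srgn and Slc18a2 are also used by other blood cells, and the mast cell proteases Mcpt1 (4.83), Mcpt2 (4.31), Mcpt4 (4.96) and Tpsab1 (6.36) and the basophil protease Mcpt8 (5.96) had means below the limit.

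FcεRI signals through scaffold proteins, and 2 of these went opposite ways. Lat2 (also called NTAL), an adaptor of the membrane, had medians of 10.09 in the parental line, 7.63 in the natural receptor line, 9.77 in the heterodimer SyCyR line and 8.59 in the homodimer SyCyR line. Without overlap, the natural receptor line was lower than the parental line (difference -2.39, SE 0.07, 5.26-fold, adjusted p = 1.16e-23) and so was the homodimer SyCyR line (-1.45, 2.73-fold, adjusted p = 2e-16). Lcp2, which encodes the adaptor SLP-76, had medians of 6.42 in the parental line, 10.65 in the natural receptor line, 6.62 in the heterodimer SyCyR line and 8.42 in the homodimer SyCyR line. Because its level in the parental line was below the limit, the change is a bound against 7.04, at least 11.6-fold higher in the natural receptor line (adjusted p = 2.3e-21) and at least 2.36-fold higher in the homodimer SyCyR line (adjusted p = 6.58e-11). Both adaptors thus placed the natural receptor line farthest from the parental line, the homodimer SyCyR line between them and the heterodimer SyCyR line close to the parental line. In this list the natural receptor line minus the parental line called 1 gene higher and 2 lower, with Orai1, a pore of store-operated calcium entry, at -0.68. The homodimer SyCyR line minus the parental line also called 1 higher and 2 lower, with the phospholipase Plcg1 at -0.71. The heterodimer SyCyR line minus the parental line called none of the 20 by limma, with 7 at an unadjusted p under 0.05. Ptpn6, the phosphatase SHP-1, had the highest mean of this list (11.85) and was lower than in the natural receptor line in the heterodimer SyCyR line (difference -0.74, adjusted p = 5.34e-11) and in the homodimer SyCyR line (-0.78, adjusted p = 1.41e-11).

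**Figure D4:**
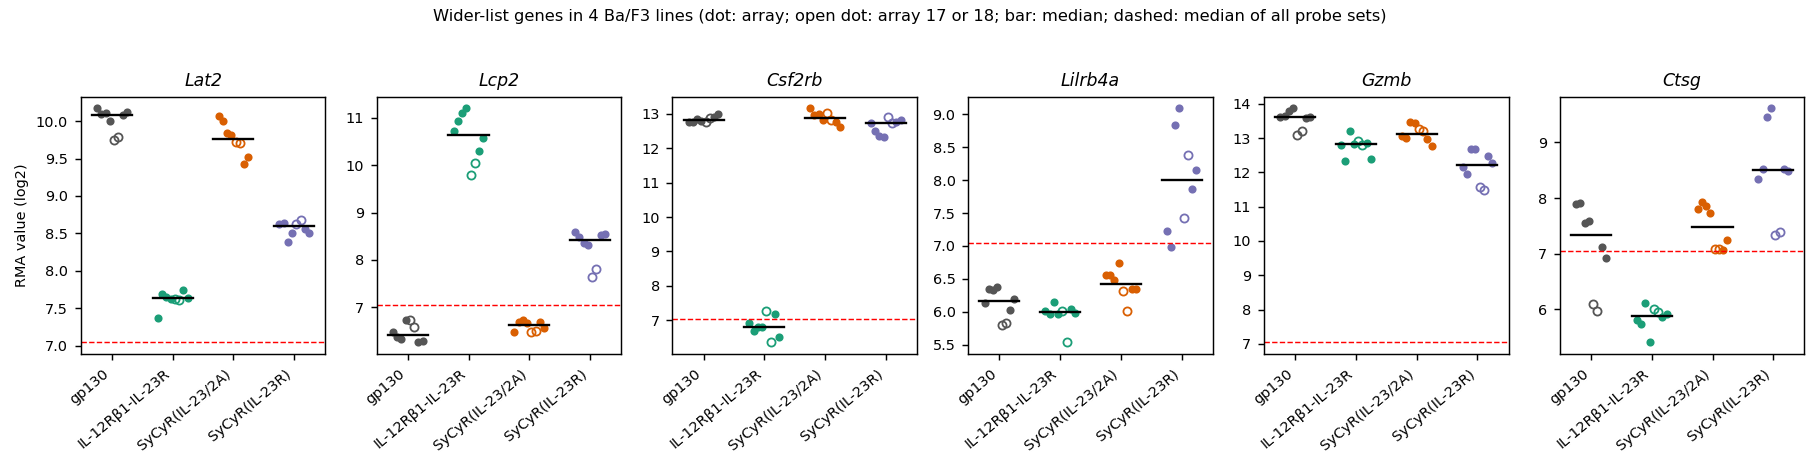
RMA values (log2, a separate scale in each panel) of Lat2, Lcp2, Csf2rb, Lilrb4a, Gzmb and Ctsg by line, 1 dot per array, arrays 17 and 18 as open dots, medians as bars and 7.04 as a dashed line. Lat2 and Lcp2 separated the lines without overlap apart from Lcp2 in the parental line and the heterodimer SyCyR line and Lat2 in the same pair, Csf2rb was low in the natural receptor line, and Lilrb4a was high in the homodimer SyCyR line.

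Among the proteases, Gzmb, granzyme B, had the highest mean (12.91), with medians of 13.62, 12.82, 13.12 and 12.22 in the parental line, the natural receptor line, the heterodimer SyCyR line and the homodimer SyCyR line. It was lower than in the parental line in the natural receptor line (difference -0.78, 1.72-fold, adjusted p = 0.000175) and in the homodimer SyCyR line (-1.38, 2.61-fold, adjusted p = 2.11e-08), the latter without overlap. Ctsg, cathepsin G, ran the other way in the homodimer SyCyR line: its median was 8.51 there, 7.33 in the parental line and 5.89 in the natural receptor line. The homodimer SyCyR line exceeded the parental line by 1.33 (SE 0.28, 2.51-fold, adjusted p = 0.000728, ranges overlapping), whereas the natural receptor line was at least 1.06-fold lower than the parental line by the bound against 7.04 (adjusted p = 0.000694). Prss34, a basophil protease, had a mean of 7.36 and was not called in any comparison. In the heterodimer SyCyR line minus the natural receptor line it was just short of 1.5-fold (0.56, adjusted p = 3.61e-06), and it was called without arrays 17 and 18 (0.59, adjusted p = 8.58e-05).

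Of the surface receptors, Csf2rb, which encodes the signaling chain shared by receptors for GM-CSF, IL-5 and IL-3, had a median of 12.82 in the parental line, 12.89 in the heterodimer SyCyR line and 12.73 in the homodimer SyCyR line but 6.80 in the natural receptor line, at least 53.7-fold lower than in the parental line (adjusted p = 5.8e-32). Its close copy Csf2rb2, the β chain for IL-3, was lower too (difference -3.40, 10.6-fold, adjusted p = 5.54e-25), and since the copies are near-identical in sequence, how much each probe set reads the other gene is uncertain. Lilrb4a, an inhibitory receptor of mast cells and myeloid cells, ran from 6.98 to 9.09 in the homodimer SyCyR line and lay below 7.04 on all arrays of the other lines, at least 1.93-fold higher in the homodimer SyCyR line than in the parental line (adjusted p = 7.97e-09). Itgb7, the integrin chain used by mast cell progenitors to enter tissue, was lower in the homodimer SyCyR line than in the parental line (difference -0.59, 1.51-fold, adjusted p = 0.00428). The natural receptor line minus the parental line called 0 of 17 receptors higher and 2 lower, the homodimer SyCyR line minus the parental line 1 higher and 1 lower and the heterodimer SyCyR line minus the parental line none by limma, with 2 of the 17 at an unadjusted p under 0.05.

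Of the transcription factors, Lmo2, a bridging partner of GATA factors, was higher than in the parental line by 0.78 in the natural receptor line (1.71-fold, adjusted p = 1.09e-11) and by 0.61 in the homodimer SyCyR line (1.53-fold, adjusted p = 9.65e-09), both without overlap. No other gene of the 22 was called in the comparisons with the parental line. Tfe3, a relative of the mast cell factor MITF, was 0.61 higher in the homodimer SyCyR line than in the natural receptor line (adjusted p = 1.22e-10). Ikzf2 (11.97) and Gfi1b (11.79) had the highest means of this list. Downstream of KIT, the adaptors Dok1 and Dok2 were higher in the natural receptor line than in the parental line by 0.96 (adjusted p = 4.15e-07) and 0.95 (adjusted p = 1.62e-05), and Spred1, an inhibitor of Ras signaling, by 0.61 (adjusted p = 2.69e-10). Dok1 was also 0.62 higher in the heterodimer SyCyR line than in the parental line (adjusted p = 0.00183). Sh2b2 was 0.66 higher in the homodimer SyCyR line than in the natural receptor line (adjusted p = 7.07e-08). These genes act below many receptors, and Kit itself lay below the limit in all lines.

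**Figure D5:**
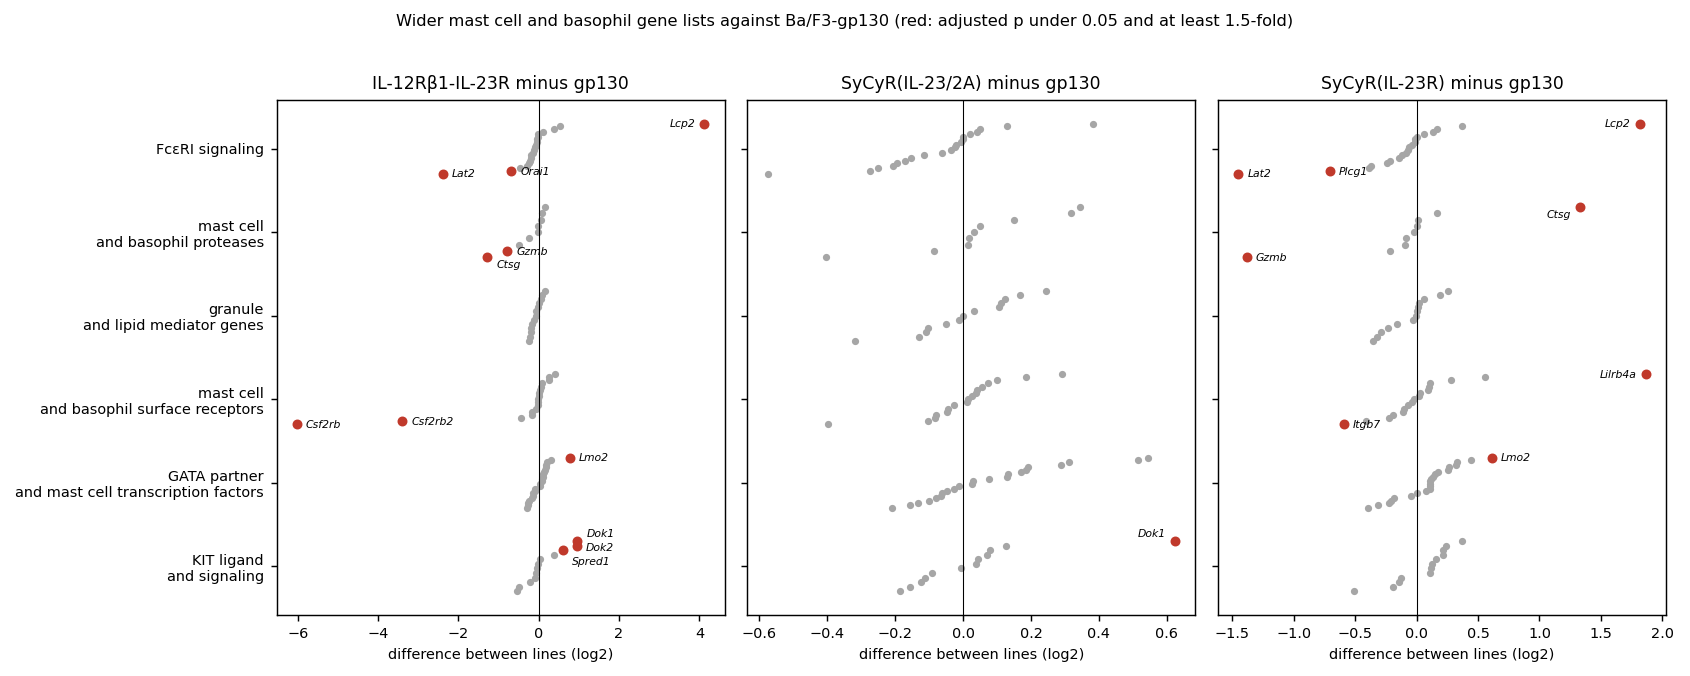
Differences from the parental line (log2, a separate scale in each panel) of every measured gene of the 6 wider lists, 1 dot per gene, with called genes in red and named. Of the 93 genes, 11 were called in the natural receptor line (beside 2.91% of all tested probe sets) and 8 in the homodimer SyCyR line (1.52%). In the heterodimer SyCyR line only Dok1 was called (0.56%). The lists were not tested as sets. They were chosen with earlier results of these data known, and the shares of all tested probe sets include dim ones. The counts beside them are therefore no measure of enrichment.

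Markers of other cell types were read on the same arrays. Of 18 measured pro-B cell markers, 5 had a mean above 7.04. Cd79a (9.89), a part of the pre-B cell receptor, was among them, whereas the B-lineage factors Pax5 (6.52) and Ebf1 (5.76) lay below the limit, as Kit did. Of 15 granulocyte and macrophage genes, 3 were called higher in the homodimer SyCyR line than in the parental line (0.867% of all tested probe sets) and 1 lower (0.649%). The median difference of the 15 was 0.09, beside 0.01 over all tested probe sets. The 3 were Itgam, a myeloid integrin (at least 1.72-fold, adjusted p = 4.41e-12), the lysozyme gene Lyz2 (at least 1.13-fold, adjusted p = 2.75e-12) and Ctsg, which also belongs to the protease list, while Mpo, myeloperoxidase, was lower (difference -1.89, 3.71-fold, adjusted p = 2.78e-06). The mean of the 15 genes per array ran from 6.98 to 7.37 in the homodimer SyCyR line, from 6.81 to 6.99 in the parental line, from 6.57 to 6.77 in the natural receptor line and from 6.83 to 7.13 in the heterodimer SyCyR line, and 5 of the 15 had a mean above 7.04. Against the parental line, the natural receptor line called 0 of the 15 higher and 2 lower (1.64% and 1.27% of all). The heterodimer SyCyR line called none (0.363% and 0.196%). Against the natural receptor line the counts were 2 and 0 in the heterodimer SyCyR line (1.17% and 1.46%). They were 3 and 0 in the homodimer SyCyR line (1.57% and 1.55%). The homodimer minus the heterodimer SyCyR line called 3 and 1 (0.671% and 0.376%). The part of these genes in the Fcer1a result was not tested. Erythroid and megakaryocyte markers (6 of 8 above the limit), eosinophil markers (2 of 8) and T cell markers (2 of 9) had no more than 1 gene called in each direction in any comparison. The same held for the pro-B cell markers.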

How the data were processed

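Total RNA of 4 Ba/F3 lines was hybridised to mouse Gene ST arrays. The authors made gene-level values with RMA and sketch-quantile normalization in Expression Console, and the deposited table holds these log2 values. RMA draws arrays to a common distribution, so a change common to most genes would not be seen. The version of Expression Console was not given in the sources used here. Precision is limited by the number of arrays. Array medians lay between 6.94 and 7.18, and the lowest correlation between arrays of a line was 0.988. The study names 4 independent biological replicates per state but does not describe the parental arrays, so p-values may measure technical spread.

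Of 35556 probe sets the platform annotation gave 1 symbol to 21789 (21698 matched to the GRCm38.p6 gene table), several to 1621 and none to 12146. Genes were named from probe sets with 1 symbol. Lines were compared by limma 3.58.1 in R 4.3.3 (lmFit, eBayes, no covariate) over 32 arrays and 23410 probe sets with a symbol. The fit was also run on simulated independent normal values. These held no pairing by array number and no stimulation effect, so the run cannot show the error rates on the real arrays. Other steps used Python 3.11.15, numpy 2.4.6, pandas 2.3.3, matplotlib 3.10.9. The study used 1.5-fold with a p-value of at most 0.01 (whether adjusted is not stated) on stimulated against control cells, which could not be formed from the labels.

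The members, the lists and the tests were chosen with earlier results of these data known. The text names all members and, of the wider lists, at most 6 called genes per list by difference and 2 by level. Other genes are named as examples and were chosen after their values were seen. List genes with no probe set of their own were not analysed here. Same-numbered arrays of the natural receptor line, the heterodimer SyCyR line and the homodimer SyCyR line deviated together (lowest correlations 0.342, 0.252 and 0.189 for the 3 pairs of lines), a sign of pairing in the values that no label states. The values and intervals in the text come from the fit without pairing, unless the block is named. With the parental line the lowest were -0.037, -0.002 and -0.018, and not every pair deviated together. Alternatives were the replicate block, all probe sets, a filter on dim ones, only the lines compared, arrays 17 and 18 left out, another quantile step, median centring, array weights and the study's threshold, taken as an unadjusted p.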

Additional observations from a re-analysis of the deposited data

Results flagged for a closer look

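Of 40 sets of 8 arrays (10 genes in 4 lines), 1 had a sample far from the others. In the homodimer SyCyR line the Hdc value of array 15 was 6.10, and the other 7 arrays lay between 6.62 and 6.72. The gap to the nearest array was 0.846 of the whole range, above the critical ratio of 0.526 for 8 arrays. Chance alone would single out about 5% of such sets. Hdc lay below the limit for expressed genes on all arrays of that line.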

How the results depend on the processing

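The 60 differences of the members gave 504 values under the alternatives. The threshold joins adjusted p and 1.5-fold, so a change of adjusted p alone below 1.5-fold, as for Gata1, does not count. Of the 504 values, 503 kept their side of the threshold, none reversed, and 15 among values that were not called changed sign. The exception was the difference of Fcer1a between the homodimer SyCyR line and the heterodimer SyCyR line after consecutive array numbers were averaged to 4 values per line, an alternative chosen after seeing the data: it stayed at 0.98 with an adjusted p of 0.195, so that comparison called 0 members. The same step gave Fcer1a an adjusted p of 0.0239 against the parental line and 0.00499 against the natural receptor line. With the sample number as a replicate block, no call of a member (adjusted p and 1.5-fold) was lost or gained, although more differences under 1.5-fold had an adjusted p under 0.05, as given for Fcer1g, and Fcer1a in the homodimer SyCyR line minus the heterodimer SyCyR line had an adjusted p of 0.0279. Of 126 counts under the alternatives, 124 stayed within 1.5 times. Without arrays 17 and 18 the wider lists had 2 genes called in the heterodimer SyCyR line minus the parental line in place of 1, with the phosphatase gene Inpp5d at -0.62 added to Dok1. Of the members, 4 lay above the median in the main setting and in 4 of the alternatives. Without arrays 17 and 18, and in the parental line alone, the number was 5, with Ms4a2 added. Which arrays of the receptor lines were stimulated was not known, and the study does not describe the parental arrays. The spread within a line may thus contain a treatment difference. The 8 arrays were taken as independent. Yet deviations of consecutive arrays from the line median had a median correlation of 0.27 in the parental line (-0.25 for other pairs of arrays). It was 0.16 in the homodimer SyCyR line (-0.14), -0.15 in the natural receptor line (-0.09) and 0.0006 in the heterodimer SyCyR line (-0.13). The cause of the shifts under the alternatives was not tested.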
